A study of Mus musculus with 12 samples.

Results

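The vacuolar H+-ATPase (V-ATPase) is the rotary proton pump of lysosomes, endosomes and the Golgi. Its peripheral V1 sector hydrolyses ATP, and the rotation of a central stalk and of a ring of proteolipids in the membrane V0 sector then carries protons into the lumen. Several subunits exist as isoforms. The V0 subunit d, which joins the stalk to the proteolipid ring, is made from *Atp6v0d1* in most cells, whereas *Atp6v0d2* is known from osteoclasts, macrophages and kidney.

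The members were 10 pump genes listed by symbol: the isoform gene *Atp6v0d2* and 9 widely expressed subunit genes. Of these, 9 were in the table of 10697 genes, and *Atp6v0c*, which encodes the main proteolipid, was not in it. The members were chosen by the known difference between thymol and DMSO, the log2 difference of *Atp6v0d2* against the other subunits. They were part of the fit across all genes, but their values, intervals and calls in that contrast are a description and support nothing. A further 17 pump genes completed the family, and 9 of them were measured, which gave 18 measured subunits.

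The RNA came from wild-type primary mouse adult fibroblasts (MAFs), cells that grew out of biopsies of C57BL6/j animals. The cultures received thymol, a phenolic monoterpene of thyme, at 100 µM for 24 h, or the same volume of its solvent DMSO, and each group held 6 libraries numbered 1 to 6. Nothing in the labels ties libraries to separate animals or cultures, so p-values measure only the spread between these libraries. QuantSeq was used for the measurement, a method that primes on the poly(A) tail and sequences near it, so that the reads of a transcript do not grow with its length. Levels are in log2 CPM as deposited (reads of a gene relative to the scaled total of its library), and differences are thymol minus DMSO on the log2 scale.

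The libraries held 6240828 to 8064382 reads over the retained genes with DMSO and 5435985 to 9049796 with thymol. The cultures held abundant markers of 2 cell types. Among 13 fibroblast markers, 12 had values (all but *Lum*), and all 18 macrophage markers did, among them *Csf1r*, *Adgre1* and *Lyz2*. No lymphocyte marker of 7 was in the table, and endothelial, keratinocyte and skeletal muscle markers were each present with 2 of 7. Both measured muscle markers were lower in the mean with thymol, and 1 of the 2 passed the threshold described below, against 2.22% of all genes. That was *Acta1*, skeletal muscle actin, with a mean of 7.11 log2 CPM with DMSO and 6.66 with thymol. *Acta1* fell by 0.45 (limma adjusted p = 5e-05), with all 6 thymol libraries below every DMSO library. The groups did not overlap, in either direction, for 1.68% of all genes. The part of *Acta1* in the results on the pump was not tested. The mean level of the 18 macrophage markers lay between 8.33 and 8.40 log2 CPM in the DMSO libraries and between 8.33 and 8.46 in the thymol libraries. The mean of the 12 fibroblast markers lay between 8.44 and 8.57 with DMSO and between 8.39 and 8.48 with thymol. It differed by -0.09, with 4 of 6 thymol libraries below every DMSO library, and 5 of the 12 were higher and 7 lower. Of the 12, 2 passed the threshold described below, against 2.22% of all genes, *Col1a1* (-0.28) and *Col3a1* (-0.54), both lower. At an unadjusted limma p-value under 0.05 there were 6, against 11.8% of all genes. In bulk RNA, a change in the number of cells of a type and a change in RNA per cell cannot be told apart.

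Some pump genes carry the E-box CACGTG near their start, the core of the element that the MiT/TFE factors, the transcription factors of lysosomal genes, are known to bind. RefSeq promoters of GRCm38.p6, 250 bases before to 50 bases after the start, were at hand for 12 of the 18 measured subunits, and CACGTG was present in 4 of these 12. The motif is its own reverse complement, so 1 search covers both strands. It was present in 12.1% of the 8529 genes of the table with a promoter and in 8.09% of all 27025 genes with one. Only this core was searched for, and not the whole element. The 4 stretches are shown because they are the pump promoters in which CACGTG was found, so that the levels of these genes can be read beside it. The motif is in capitals, with 20 bases on each side. *Atp6v0b* carried the motif at 2 places.
Atp6v0b, chr4:117887322-117887385, minus strand: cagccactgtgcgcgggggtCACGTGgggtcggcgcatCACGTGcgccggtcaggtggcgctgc
Atp6v0d1, chr8:105566042-105566087, minus strand: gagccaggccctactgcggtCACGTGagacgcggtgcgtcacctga
Atp6v1a, chr16:44139365-44139410, minus strand: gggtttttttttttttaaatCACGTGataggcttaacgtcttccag
Atp6v0e, chr17:26676379-26676424, plus strand: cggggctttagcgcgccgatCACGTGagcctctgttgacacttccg
The promoter table held no entry for *Atp6v0d2*, *Atp6v1b2*, *Atp6v1c1*, *Atp6v1h*, *Atp6v0a2* or *Atp6v1g1*. A match of letters is a description and not a bound site. The 4 genes with the motif had differences between -0.08 (*Atp6v0d1*) and 0.06 (*Atp6v1a*), and none passed the threshold described next.

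The first comparison asked how the pump transcripts differed after 24 h of thymol. A fit of limma across all 10697 genes called 238 genes at an adjusted p-value of 0.05, or 2.22% of those tested, 70 of them higher with thymol (0.654%) and 168 lower (1.57%). Of the 9 measured members 2 were past this threshold, *Atp6v0d2* and *Atp6v1b2*, both higher, and nothing is read from that count because the list was drawn with the contrast in view. In the mean, 6 members were higher and 3 lower, with a median difference of 0.06 against 0.0026 over all genes. Thymol and DMSO libraries did not overlap for 1 member, *Atp6v0d2*, and for 180 genes in the table (1.68%), 56 of them higher with thymol (0.524%).

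*Atp6v0d2* (chromosome 4, 19876841 to 19922605, minus strand, GRCm38) had the largest increase among the 18 subunits. With DMSO its level ranged from 5.43 through a median of 5.77 to 5.95 log2 CPM, and with thymol from 6.35 through 6.57 to 6.91. The highest DMSO library lay below the lowest thymol library. The difference was 0.82 ± 0.094 (SE, 95% interval 0.63 to 1.01), which is 1.76-fold (1.55 to 2.01). In recovered reads the gene had a mean of 384.5 per DMSO library and 621.8 per thymol library, and its lowest library held 286, so that its level did not rest on a handful of reads. Among the 70 genes called higher it had the 3rd largest difference.

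*Atp6v0d1* (chromosome 8, 105524465 to 105566047, minus strand), the gene of the widely expressed d subunit, had no such difference. Its level ranged from 7.22 through 7.26 to 7.40 log2 CPM with DMSO and from 6.98 through 7.21 to 7.42 with thymol. The thymol libraries spread on either side of the DMSO libraries, with 3 below all of them and 1 above. The difference was -0.08 (95% interval -0.23 to 0.06).

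**Figure D1:**
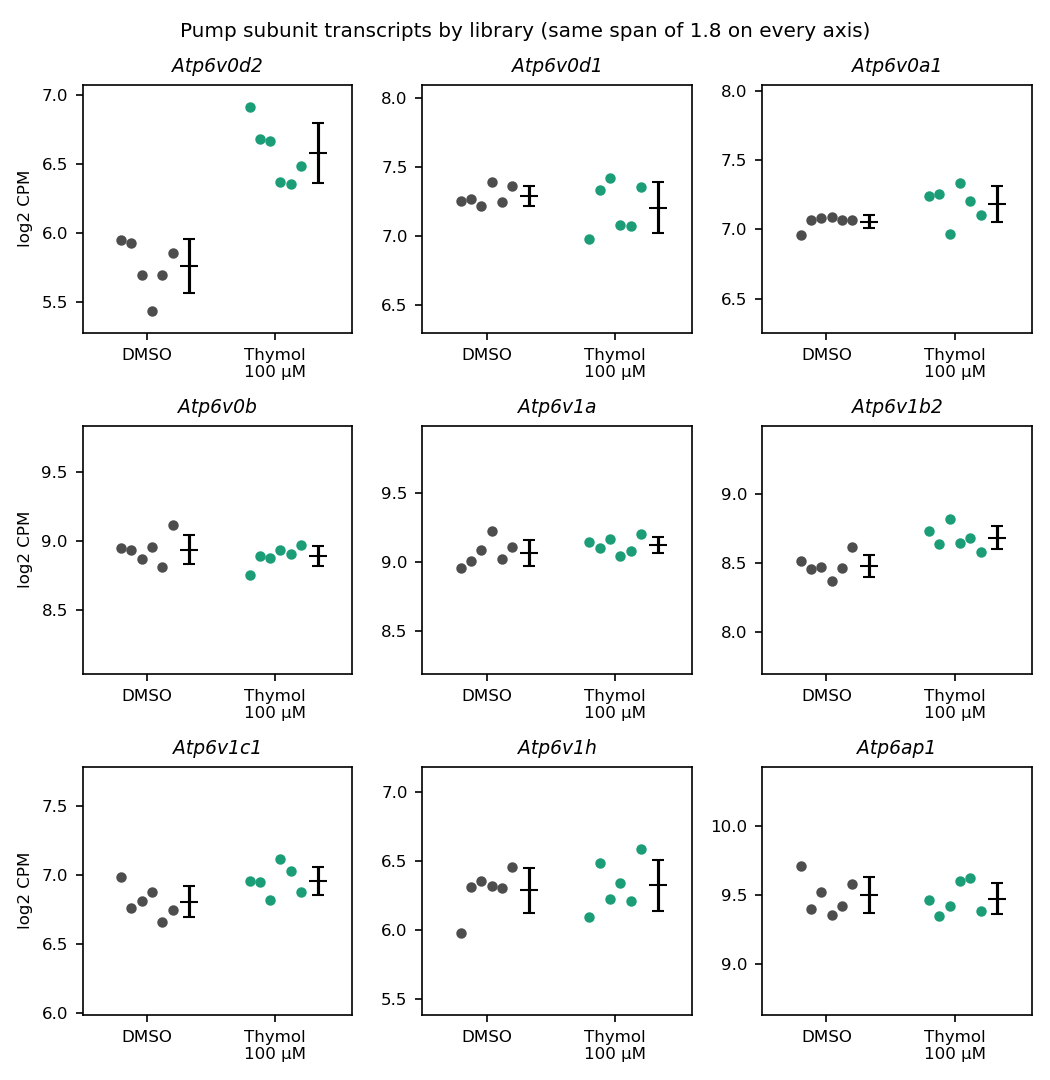
Level of each of the 9 measured members by library, in log2 CPM, for 6 DMSO libraries (grey) and 6 thymol libraries (green); bars give the mean and SD of a group, and every vertical axis spans 1.8. The *Atp6v0d2* libraries separate, from 5.43 to 5.95 with DMSO and from 6.35 to 6.91 with thymol, and in the other 8 panels the groups overlap.

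The second comparison set the d2 isoform against the other subunits, library by library. The level of *Atp6v0d2* minus the mean of the 8 other measured members ranged from -2.51 to -1.97 with DMSO, with a median of -2.17, and from -1.64 to -1.01 with thymol, with a median of -1.42. All 6 thymol libraries lay above all 6 DMSO libraries. The means were -2.17 ± 0.20 and -1.40 ± 0.24 (SD, n = 6 each), a shift of 0.77. The 8 members themselves averaged 7.93 ± 0.046 in DMSO libraries and 7.98 ± 0.035 in thymol libraries (SD, n = 6 each), and only 2 of the thymol libraries lay above every DMSO library. This is the contrast named when the members were listed, so no test of it is given.

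As a share of the reads of both d genes, *Atp6v0d2* held 20.4% to 28.7% with DMSO and 35.4% to 48.8% with thymol. The DMSO libraries averaged 25.7% ± 2.96 and the thymol libraries 39.3% ± 4.82 (SD, n = 6 each). QuantSeq reads are not independent molecules, so these shares carry the spread between libraries and no counting interval. The sum of *Atp6v0d1* and *Atp6v0d2* was 210.7 ± 8.11 RPM (recovered reads relative to the total of the library) with DMSO and 244.5 ± 23.3 with thymol, with 4 of the 6 thymol libraries above every DMSO library.

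Thymol replicate 1 had the highest *Atp6v0d2* share, 48.8% against 38.8% in the next thymol library, and also the highest mean of the macrophage markers, 8.46 log2 CPM. The part of that library in the result was measured by leaving it out. Without it the mean thymol share was 37.4% ± 1.28 (SD, n = 5), the difference of *Atp6v0d2* was 0.75, and its shift against the 8 other members was 0.69. The level of *Atp6v0d2* minus the mean of the 18 macrophage markers ranged from -2.93 to -2.45 with DMSO and from -2.03 to -1.54 with thymol, a shift of 0.82, or 0.78 without that library. The macrophage markers themselves differed in the mean by -0.0065, a value that averages differences of both signs, with 8 of the 18 higher and 10 lower. Of the 18, 2 passed the threshold, against 2.22% of all genes, *Ctss* (0.26) higher and *Itgam* (-0.31) lower. At an unadjusted limma p-value under 0.05 there were 6, against 11.8% of all genes.

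**Figure D2:**
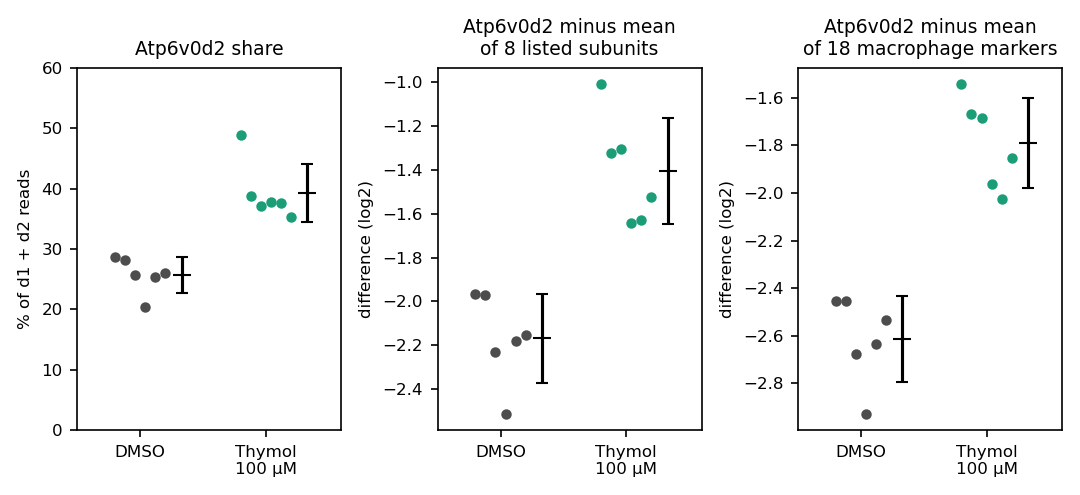
*Atp6v0d2* by library as a percentage of the recovered reads of *Atp6v0d1* and *Atp6v0d2* together (left), minus the mean level of the 8 other measured members (middle, log2) and minus the mean level of 18 macrophage markers (right, log2), for 6 DMSO (grey) and 6 thymol libraries (green) with the mean and SD. In each panel all thymol libraries lie above all DMSO libraries, and thymol replicate 1, the leftmost green point, is the highest.

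Among the other V0 genes, the measured members did not pass the threshold. *Atp6v0a1* (chromosome 11, 101009452 to 101063719, plus strand) encodes a form of the a subunit, the large membrane protein along which protons pass. Its level ranged from 6.96 through 7.07 to 7.09 log2 CPM with DMSO and from 6.97 through 7.22 to 7.34 with thymol. In 5 of 6 thymol libraries it lay above every DMSO library, and the remaining thymol library lay near the lowest DMSO value. Its difference was 0.13 (95% interval -0.0041 to 0.27). *Atp6v0b* (chromosome 4, 117884326 to 117887333, minus strand), a proteolipid of the ring, ranged from 8.81 to 9.12 with DMSO and from 8.76 to 8.97 with thymol, a difference of -0.05 (95% interval -0.15 to 0.06). The gene Gm12841 lies on the opposite strand over the last 1000 bases of *Atp6v0b* and shares a stretch of 72 identical bases with its 3′ end, and the strand setting of the counting is not given in the sources used here. Reads of the 2 genes may therefore be mixed.

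*Atp6v0c* (chromosome 17, 24163866 to 24169702, minus strand) was the member without a value. The last 400 bases of its transcript held matches to the annotated pseudogenes Atp6v0c-ps1 and Atp6v0c-ps2. The longest match spanned 400 bases at 99.75% identity. No such match of at least 65 bases at 95% identity was found for the 3′ end of *Atp6v0d2* or *Atp6v0d1*.

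The V1 genes among the members began with the catalytic sector. *Atp6v1a* (chromosome 16, 44085402 to 44139705, minus strand), the ATP-hydrolysing A subunit, ranged from 8.95 to 9.22 log2 CPM with DMSO and from 9.04 to 9.20 with thymol. Its thymol values lay within the range of its DMSO values, and its difference was 0.06 (95% interval -0.05 to 0.16). *Atp6v1b2* (chromosome 8, 69088646 to 69113711, plus strand), the widely expressed B subunit that alternates with A in the catalytic ring, ranged from 8.37 through 8.47 to 8.61 with DMSO and from 8.58 through 8.66 to 8.82 with thymol. In 5 of 6 thymol libraries it lay above every DMSO library. Its difference was 0.20 ± 0.054 (SE, 95% interval 0.094 to 0.31), or 1.15-fold. It was no longer past the threshold in 7 of 23 alternative fits, 4 of which left out a single library (DMSO replicate 2, 4 or 5, or thymol replicate 3), where the difference was 0.20, 0.18, 0.20 and 0.17.

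The remaining members are stalk, regulatory and accessory subunits, and none was past the threshold. *Atp6v1c1* (chromosome 15, 38661933 to 38692446, plus strand), whose C subunit joins V1 to V0 and is released when the pump comes apart, ranged from 6.66 through 6.78 to 6.98 log2 CPM with DMSO and from 6.82 through 6.95 to 7.11 with thymol. The groups overlapped, with 2 of 6 thymol libraries above every DMSO library and a difference of 0.15 (95% interval 0.0077 to 0.29). *Atp6v1h* (chromosome 1, 5070018 to 5162529, plus strand), which encodes the H subunit that silences free V1, ranged from 5.98 to 6.46 with DMSO and from 6.09 to 6.59 with thymol, a difference of 0.04 (95% interval -0.14 to 0.21). *Atp6ap1* (chromosome X, 74297097 to 74304721, plus strand), the accessory protein Ac45 that takes part in assembly, ranged from 9.36 to 9.71 and from 9.35 to 9.63, a difference of -0.03 (95% interval -0.14 to 0.09). Over the 8 members beside *Atp6v0d2* the differences ran from -0.08 to 0.20.

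The other 9 measured subunits were the rest of the family, left once the members had been chosen with the contrast known. Limma called 0 of them over all genes, with 2 at an unadjusted p-value under 0.05, as were 1261 of all 10697 genes (11.8%). The voom fit on recovered reads also called 0. Those not in the table were *Atp6v0a4*, *Atp6v1b1*, *Atp6v1c2*, *Atp6v1e2*, *Atp6v1g2*, *Atp6v1g3*, *Atp6ap1l* and *Rnasek*, among them the kidney and testis isoforms. The median difference of the 9 was 0.0025, beside 0.0026 over all genes.

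*Tcirg1* (chromosome 19, 3896050 to 3907133, minus strand) encodes a3, the a isoform of the osteoclast pump. Its level ranged from 6.20 through 6.32 to 6.45 log2 CPM with DMSO and from 6.42 through 6.59 to 6.71 with thymol, with 5 of 6 thymol libraries above every DMSO library. The difference was 0.25 ± 0.078 (SE, limma adjusted p = 0.074), which missed the threshold. Over 23 alternative fits its adjusted p-value ranged from 0.036, without thymol replicate 5, to 0.47, and that was the 1 fit in which it passed. Of the reads of the 3 measured a genes, *Tcirg1* held 29.0% ± 1.00 with DMSO and 30.8% ± 1.42 with thymol, *Atp6v0a1* held 47.7% ± 2.00 and 46.7% ± 3.33, and *Atp6v0a2* held 23.4% ± 1.53 and 22.6% ± 2.62 (SD, n = 6 each). All 3 pairs of ranges overlapped. The *Tcirg1* share lay above every DMSO library in 5 of 6 thymol libraries, and each of the other 2 shares did in 1.

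*Atp6v0e2* (chromosome 6, 48537615 to 48541801, plus strand), an isoform gene of the small e subunit, was the lowest of the 18. It ranged from 3.02 through 3.20 to 3.63 log2 CPM with DMSO and from 1.18 through 2.59 to 3.08 with thymol, with 4 of 6 thymol libraries below every DMSO library. The difference of -0.80 ± 0.27 (SE, limma adjusted p = 0.11) missed the threshold, rested on 18 to 85 reads per library and was -0.31 with a pseudocount of 10. Its partner *Atp6v0e* had a difference of -0.07 (adjusted p = 0.75).

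Differences of the remaining 6 were small against their intervals. *Atp6v0a2*, the a isoform of Golgi and endosomes, had 0.11 (95% interval -0.07 to 0.29), and *Atp6v1g1*, a stator subunit, had 0.06 (95% interval -0.18 to 0.30). *Atp6v1d* of the central stalk had -0.05 (95% interval -0.17 to 0.07). The stator subunit *Atp6v1e1* had 0.02 (95% interval -0.10 to 0.14). *Atp6v1f* of the stalk had 0.0011 (95% interval -0.097 to 0.10), and *Atp6ap2*, the (pro)renin receptor, had 0.0025 (95% interval -0.11 to 0.11). A second gene lay on the opposite strand over the last 1000 bases of *Atp6v0a2* (4930404A12Rik) and of *Atp6v1e1* (Slc25a18), and 156 bases of the 3′ end of *Atp6v1f* matched AC169506.3, so counts of these 3 are less certain.

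**Figure D3:**
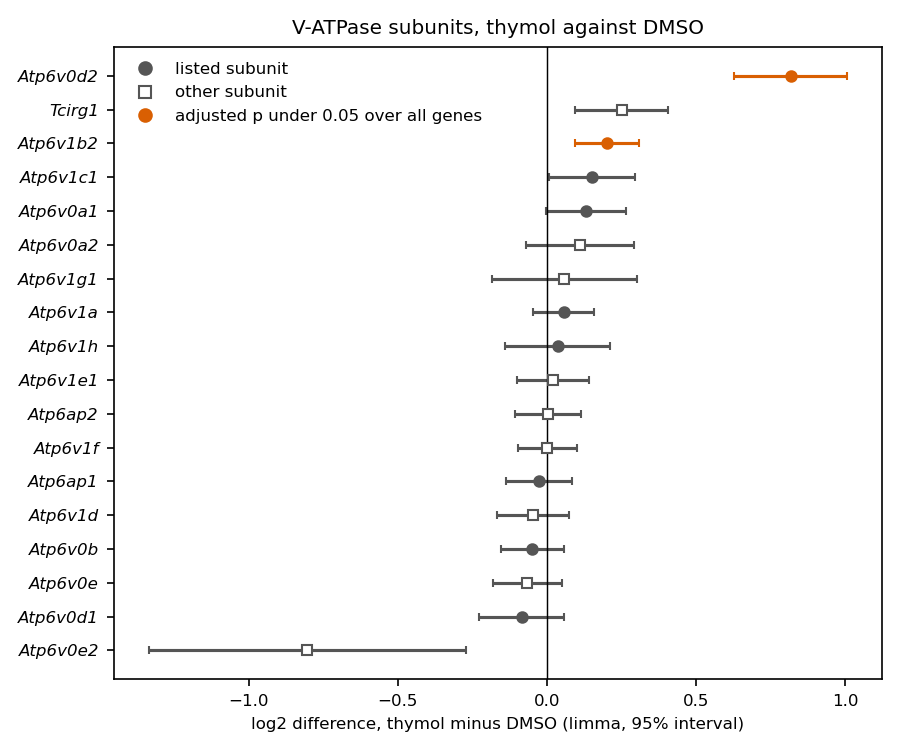
Difference of each of the 18 measured subunits, thymol minus DMSO in log2 units, with its 95% interval from limma; circles are listed members, open squares the other subunits, and orange marks an adjusted p-value under 0.05 over all genes. *Atp6v0d2* stands at 0.82, *Atp6v1b2* at 0.20, and *Atp6v0e2*, with 18 to 85 reads per library, at -0.80 with the widest interval of the 18.

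The third description was of the levels that the subunits had in the absence of thymol. QuantSeq reads are not scaled by length, so the genes were set side by side without a length correction, in RPM. The places of *Atp6v0b*, *Atp6v1f*, *Atp6v0a2* and *Atp6v1e1* are less certain, because other genes overlap or match their 3′ ends. *Atp6v0c* had no value and so no place. *Atp6ap1* stood highest at 726.9 ± 68.5 RPM, followed by *Atp6v1a* (536.1 ± 35.9), *Atp6v1f* (497.7 ± 14.9) and *Atp6v0b* (491.8 ± 36.2), the last 3 with overlapping ranges (SD, n = 6 each). Next came *Atp6v0e* (374.5 ± 29.2) and *Atp6v1b2* (357.1 ± 20.0), which overlapped. *Atp6v0d1* stood in place 10 at 156.5 ± 7.80, *Atp6v0a1* in place 11 at 132.8 ± 4.20 and *Atp6v1c1* in place 12 at 111.7 ± 8.84, where the first did not overlap its neighbours and the other 2 overlapped each other. *Tcirg1* (80.8 ± 5.63), *Atp6v1h* (78.1 ± 8.23), *Atp6v0a2* (65.2 ± 5.97) and *Atp6v0d2* (54.2 ± 7.01) followed, each overlapping the next.

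*Atp6v0d2* was thus in place 16 of 18 with DMSO, above *Atp6v1g1* (30.6 ± 4.21) and *Atp6v0e2* (9.37 ± 1.69). With thymol it had 96.0 RPM and stood in place 14, just under *Tcirg1* with 96.2. *Atp6v1b2* moved from place 6 to place 5.

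**Figure D4:**
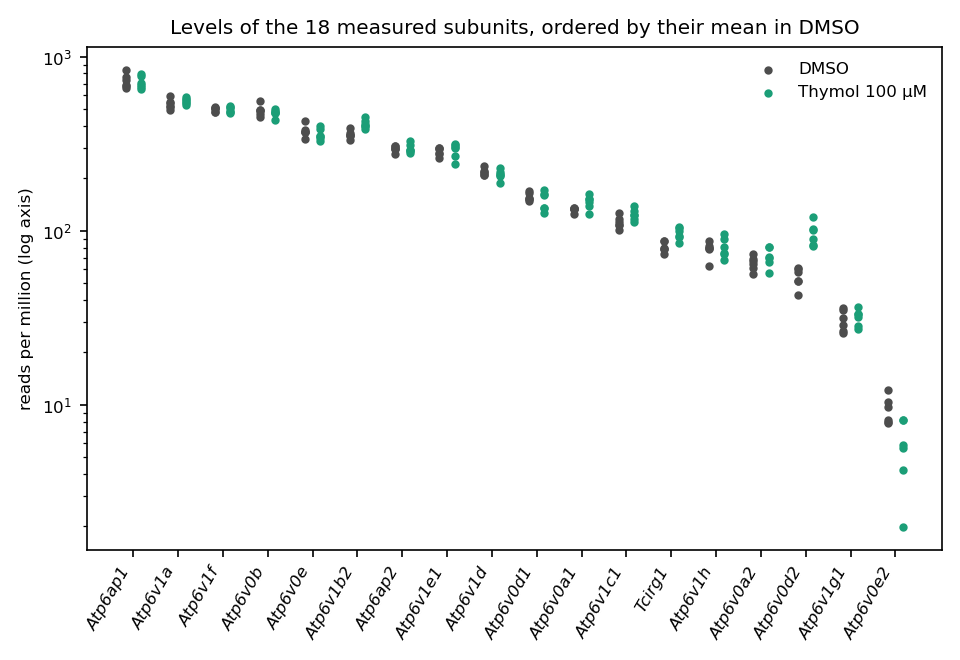
RPM of the 18 measured subunits on a log axis, each point a library, 6 with DMSO (grey) and 6 with thymol (green), ordered by the mean log2 level in DMSO. The order runs from *Atp6ap1* at 726.9 to *Atp6v0e2* at 9.37, and *Atp6v0d2* is the subunit whose 2 groups do not overlap.

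Genes that assemble, regulate or surround the pump were read from lists of names. The 7 lists held 62 genes, 55 of them measured, and limma called 1 of the 55, against 2.22% of all genes, with 10 at an unadjusted p-value under 0.05, against 11.8% of all genes. That gene was *Fnip2*, a partner of folliculin in the nutrient-sensing machinery that docks on the pump. It ranged from 4.94 through 5.19 to 5.49 log2 CPM with DMSO and from 5.42 through 5.59 to 5.84 with thymol, with 4 of 6 thymol libraries above every DMSO library. *Fnip2* rose by 0.37 ± 0.11 (SE, limma adjusted p = 0.048). It no longer passed in 15 of 23 alternative fits, and over all 23 its difference ranged from 0.30 to 0.42. The libraries whose omission ended the call were DMSO replicates 1, 2, 3, 5 and 6 and thymol replicates 1, 2, 3 and 6, with differences from 0.31 to 0.39.

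The 12 measured genes of that machinery (Ragulator, Rag GTPases, *Slc38a9*, folliculin and its partners) otherwise had 0 calls, 8 of the 12 were higher in the mean, and their median was 0.06. Of 3 assembly factors of the endoplasmic reticulum limma called 0, with 0 at an unadjusted p-value under 0.05, and the smallest p-value belonged to *Tmem199* (0.21, adjusted p = 0.58). Of 8 measured genes that help V1 and V0 rejoin or carry a TLDc domain it called 0, with 1 at an unadjusted p-value under 0.05, *Dmxl2* of the rabconnectin complex (-0.41, adjusted p = 0.26). Of 14 measured endolysosomal ion carriers it called 0, with 3 at an unadjusted p-value under 0.05, led by the cation channel gene *Mcoln2* (-0.40, adjusted p = 0.19). The voom fit called 0 of all 55.

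Among the MiT/TFE factors limma called 0 of 4, with 1 at an unadjusted p-value under 0.05, *Mitf* (0.28, adjusted p = 0.22). It called 0 of 8 lysosomal membrane proteins, with 1 at an unadjusted p-value under 0.05, *Cd63* (0.11, adjusted p = 0.22). Of 10 genes of osteoclasts and giant cells, in which *Atp6v0d2* is well known, 6 were in the table. *Dcstamp*, *Ocstamp*, *Oscar* and *Calcr*, genes that define fusing or mature osteoclasts, were not in it. Limma called 0 of the 6, with 3 at an unadjusted p-value under 0.05, against 11.8% of all genes. These were *Mmp9* (-0.72, adjusted p = 0.089), the RANK receptor gene *Tnfrsf11a* (0.39, adjusted p = 0.091) and *Ctsk* (0.24, adjusted p = 0.21). The last 2 were chosen for mention after their values were seen. In the mean, 5 of the 6 were higher and 1 lower, with a median difference of 0.23 against 0.0026 over all genes. The mean of the 6 lay between 4.01 and 4.42 log2 CPM with DMSO and between 4.08 and 4.52 with thymol. Its part in the *Atp6v0d2* result was not tested.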

How the data were processed

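The authors aligned the reads to GRCm38 with STAR 2.5.3, counted them per gene with HTSeq 0.6.1, set a minimum of 30 reads in 6 samples, removed unannotated genes and normalized by TMM. The deposited values are log2 CPM with a prior count. Undoing the logarithm gave equal steps in each library: below 200 reads, 100% of values came within 0.02 of whole reads. These recovered reads gave depths, shares and RPM, and 98.0% of genes met the authors' minimum. Depths were 5435985 to 9049796 reads.

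Groups were compared with limma 3.58.1 in R 4.3.3 (trend, no covariate, two-sided, Benjamini-Hochberg over 10697 genes, threshold 0.05), a test for log2 values; voom on the recovered reads was an alternative. Named genes were all members, all other measured subunits and, per list, the genes past the threshold or else the gene with the smallest p-value. The members and lists were chosen with earlier results of these data known. *Atp6v0c* was not in the table, so the mean of the other members, planned over 9, is over 8. Gene positions are GENCODE vM21. Alternatives were other variance models, a pseudocount of 10, median centring, quantile normalization and a minimum mean of 5. Others were a replicate block, odd or even library number and each library left out. An exact rank-sum test was run beside these 23 alternative fits and is not counted among them. Libraries of a group differed by more than sampling noise (chi-square per degree of freedom 4.18 to 12.1).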

Additional observations from a re-analysis of the deposited data

Results flagged for a closer look

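A library was singled out where it stood farther from the other 5 of its group, relative to the spread of all 6, than Dixon's critical value at 95% allows. Of 60 groups tested, over the 18 subunits and the derived measures, 6 held such a library, where chance gives about 1 in 20, or 3. With DMSO, replicate 1 had the lowest level of *Atp6v0a1*, 6.96 log2 CPM, and the lowest level of *Atp6v1h*, 5.98 log2 CPM. DMSO replicate 4 had the lowest value of *Atp6v0d2* minus *Atp6v0d1*, -1.96. Thymol replicate 1 had the highest value of *Atp6v0d2* minus *Atp6v0d1*, -0.067, the highest *Atp6v0d2* share of the d reads, 48.8%, and the highest mean of the macrophage markers, 8.46 log2 CPM. These measures share genes and are not independent.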

How the results depend on the processing

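Over 23 alternative fits the difference of *Atp6v0d2*, which was chosen for it, ranged from 0.72 to 0.86, and its shift against the 8 other members ranged from 0.69 to 0.81 with a library left out and was 0.67 with a pseudocount of 10. The counts moved more. Without the mean-variance trend 57 genes passed over all genes, 1 member and 0 of the 55 listed pathway genes; the odd-numbered libraries alone gave 70 genes, 1 member and 0 pathway genes; and the even-numbered ones gave 167 genes, 1 member and 0 pathway genes. The exact rank-sum test gave 0 genes, 0 members and 0 pathway genes, with 1016 genes at an unadjusted p-value under 0.05. Its smallest adjusted p-value was 0.13, that of every gene whose groups did not overlap, *Atp6v0d2* included. Full separation is the strongest result this test can give with 6 libraries per group, so no gene could pass it here. The pathway count was also 0 with voom and with median centring. With a library left out, members past the threshold ranged from 1 to 2, other subunits from 0 to 1 and pathway genes from 0 to 1. Whether same-numbered libraries are paired cannot be settled from these values. Same-numbered libraries correlated between -0.051 and 0.27, over 0.1 in 2 of 6 pairs, and 2 of 6 thymol libraries correlated best with their own number. With the replicate block 332 genes passed, more than the 238 without it. The calls of members (2), other subunits (0) and pathway genes (1) were as before. Of the 18 subunits, *Atp6v0e2* had the fewest reads, 18 to 85 per library. The causes of these changes were not tested.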

Other observations

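Once each group's mean had been subtracted, the 12 libraries showed which genes varied alongside *Atp6v0d2*. Of 5393 genes with a mean of at least 5 log2 CPM, 24 had a Pearson correlation with it over 0.8 and 13 one under -0.8. The 5 highest were *Rala* (0.93), *Il4ra* (0.89), *Fcgr3* (0.87), *Imp4* (0.86) and *Gab2* (0.86), and the lowest were *Arf4* (-0.85) and *Pcyox1l* (-0.86). By Spearman rank correlation the 5 highest were lower, from 0.69 (*Fcgr3*) to 0.87 (*Rala*). *Arf4* had -0.73 and *Pcyox1l* -0.72 by that measure. These genes head a ranking over 12 points that share depth and scaling, so the values are a description. None of the 7 passed the threshold between thymol and DMSO, and *Rala* and *Fcgr3* differed by 0.04 and 0.0052. Among the 17 other subunits the correlation ran from -0.55 (*Atp6v0e*) to 0.84 (*Atp6ap2*), with 0.56 for *Atp6v1b2*, 0.29 for *Tcirg1* and -0.11 for *Atp6v0d1*. *Atp6ap2* thus varied with *Atp6v0d2* between libraries of a group, while its difference between the groups was 0.0025.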
